A study of Mus musculus with 6 samples.

Results

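The genes described here are 9 markers of liver sinusoidal endothelial cells: the scavenger receptors Stab1 and Stab2, the lectin Clec4g, the hyaluronan receptor Lyve1, the vascular endothelial growth factor (VEGF) receptor Kdr, the junction protein Pecam1, the ligand Bmp2, and Oit3 and Dnase1l3. They were taken by symbol, as a given list, from the 35540 genes in the liver RNA sequencing table. The rule itself uses no measured value, though the list was drawn up with earlier results of these data known. All 9 were in the table and passed the minimum of 0.1 TPM on average, so all 9 are among the 14189 genes tested. TPM is a transcript abundance corrected for transcript length and scaled to a fixed total per mouse.

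The libraries came from the livers of 6 mice, 1 library a mouse: 3 were Surf4 fl/fl Alb-Cre+ and the other 3, their littermates without Cre, were Surf4 fl/fl Alb-Cre-. Every mouse, controls included, carried Surf4 alleles with loxP sites around exon 2 on a C57BL/6 J background, and the Alb-Cre+ mice also carried a Cre recombinase driven by the albumin promoter, which is active in hepatocytes. Endothelial cells were therefore not the cells aimed at by the deletion, and the measurements below are of their mRNA within whole liver. The mice numbered 2 were the females of their genotype and those numbered 1 and 3 the males. The mice were kept on chow and fasted overnight before samples were taken, and the age of the sequenced mice is not given in the sources used here. SURF4 is a cargo receptor that carries secreted proteins out of the endoplasmic reticulum, and the comparison asks which liver mRNAs differ when hepatocytes lack it.

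Sinusoidal endothelial cells line the blood channels of the liver. They lack a continuous basement membrane, are pierced by open pores, and clear waste molecules from blood through scavenger receptors. They also send signals to the hepatocytes beside them: BMP2 and BMP6 made by these cells act on hepatocytes to raise hepcidin, the hormone that limits iron uptake, and VEGF made by hepatocytes acts back on the endothelium through the receptor encoded by Kdr.

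None of the 9 markers differed between genotypes beyond the spread between mice. In every member the ranges of the Alb-Cre+ and Alb-Cre- mice overlapped, 4 were higher and 5 lower on average in Alb-Cre+ liver, and the median log2 difference was -0.01, against -0.00 over all genes tested. Over all 6 mice, 8 of 9 markers were highest in a female mouse, against 66.2% of all genes. The lowest value was in a replicate 3 mouse for 9 of 9, against 64.1%. Neither count held within both genotypes. Among the Alb-Cre+ mice alone, Kdr and Dnase1l3 were highest in replicate 1, and Bmp2 was lowest in the female. Among the Alb-Cre- mice alone, Lyve1 was lowest in replicate 1. After scaling the libraries by median of ratios, 5 of 9 were highest in a female (40.1% of all genes) and 8 of 9 lowest in a replicate 3 mouse (33.9%). In whole liver, fewer endothelial cells and less RNA per endothelial cell cannot be told apart.

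The targeted gene was lower in the Alb-Cre+ mice. Surf4 was at 59.0, 71.8 and 54.3 TPM in Alb-Cre+ replicates 1, 2 and 3 and at 92.5, 94.5 and 92.5 TPM in the Alb-Cre- mice. The ranges did not overlap, and the log2 difference was -0.60 (SE 0.13), with an adjusted p of 1.0 over all genes tested by limma. No gene of the 14189 passed an adjusted p of 0.01 by limma (percent called, 0.0), the smallest being 0.456, and the unadjusted p was under 0.05 for 250 genes. The authors' own comparison with another method, DESeq2, called a limited number of genes at a false discovery rate under 0.01. The absence of calls here therefore belongs to limma on these TPM. Alb, the main hepatocyte mRNA, was at 38059 to 55647 TPM in the 6 mice and had a log2 difference of -0.07.

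The letters just before the transcription start are shown for members with a RefSeq promoter entry, since markers of a single cell type raise the question of what their starts share. RefSeq promoters on GRCm38.p6 were matched for 4 of the 9 members, Stab1, Stab2, Clec4g and Kdr, and the 250 bases before the start are printed 5′ to 3′ on the gene's strand for 3 of them. Motifs of endothelial transcription factors were searched on both strands. They were GATAA, a form of the core bound by GATA factors such as GATA4, and AGGAAG or CGGAAG, cores bound by ETS factors such as ERG. Capitals mark the ETS motif matches (CTTCCT and CTTCCG are matches on the other strand), and no stretch was shared by both motifs. The windows are chr14:31168642-31168891 (minus strand) for Stab1, chr8:3720652-3720901 (minus strand) for Clec4g and chr5:75978456-75978705 (minus strand) for Kdr.
Stab1: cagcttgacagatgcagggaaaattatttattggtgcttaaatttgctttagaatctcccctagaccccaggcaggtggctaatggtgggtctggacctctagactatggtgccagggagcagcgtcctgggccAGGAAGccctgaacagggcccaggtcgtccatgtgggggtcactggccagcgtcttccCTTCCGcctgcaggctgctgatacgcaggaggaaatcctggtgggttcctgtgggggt
Clec4g: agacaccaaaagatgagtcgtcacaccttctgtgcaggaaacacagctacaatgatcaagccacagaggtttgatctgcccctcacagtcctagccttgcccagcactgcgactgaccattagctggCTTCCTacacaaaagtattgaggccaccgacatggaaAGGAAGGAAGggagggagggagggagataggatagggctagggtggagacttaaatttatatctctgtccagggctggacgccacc
Kdr: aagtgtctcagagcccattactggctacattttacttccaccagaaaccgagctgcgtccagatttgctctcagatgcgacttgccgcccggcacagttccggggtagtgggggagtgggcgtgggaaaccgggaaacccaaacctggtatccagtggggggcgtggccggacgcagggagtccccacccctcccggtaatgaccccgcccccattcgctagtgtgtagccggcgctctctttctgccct

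The ETS motif was found at 2 places in the Stab1 window, 1 in the Stab2 window and 3 in the Clec4g window, where the 2 nearest the start overlap in a single run, and at 0 places in the Kdr window. The GATA motif, as GATAA, was found at 0 places in all 4 windows. The form GATAG was not searched, and it occurs in the printed Clec4g window. Of 32851 mouse promoters, 39.2% held the ETS motif and 22.6% the GATA motif within the same length. These matches describe letters only, and the absence of a match says nothing about binding elsewhere at the gene. G and C made up 57.2% of the Stab1 window, 53.2% of the Stab2 window, 52.0% of the Clec4g window and 61.6% of the Kdr window.

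Per transcript length, and counting all transcripts of a gene, Clec4g was the most abundant member and Bmp2 the least. Over the 6 mice the levels were 53.4 ± 15.7 TPM (SD) for Clec4g and 31.9 ± 16.9 TPM for Lyve1, then 13.9 ± 3.62 TPM for Oit3, 13.5 ± 4.57 TPM for Stab2, 11.5 ± 2.73 TPM for Dnase1l3 and 11.3 ± 4.60 TPM for Pecam1. Stab1 at 7.87 ± 2.36 TPM, Kdr at 7.55 ± 2.68 TPM and Bmp2 at 5.83 ± 2.01 TPM were the lowest. The order was firm at 3 steps, where the higher gene was above its neighbour in all 6 mice: Lyve1 over Oit3, Pecam1 over Stab1, and Kdr over Bmp2. Clec4g was above Lyve1 in 5 of 6 mice and Stab2 above Dnase1l3 in 4 of 6, while Oit3 and Stab2, Dnase1l3 and Pecam1, and Stab1 and Kdr each changed places in 3 of the 6 mice. Protein-coding transcripts alone gave another order at the low end. On that scale Stab1 averaged 4.15 TPM in Alb-Cre+ and 3.62 TPM in Alb-Cre- mice, and Stab2 4.89 and 4.03 TPM. Bmp2 averaged 5.73 and 5.92 TPM, above both stabilin genes. The female Alb-Cre+ mouse went the other way, with Stab1 at 6.91, Stab2 at 8.14 and Bmp2 at 4.48 TPM. Bmp2 was above both in each of the other mice.

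**Figure D1:**
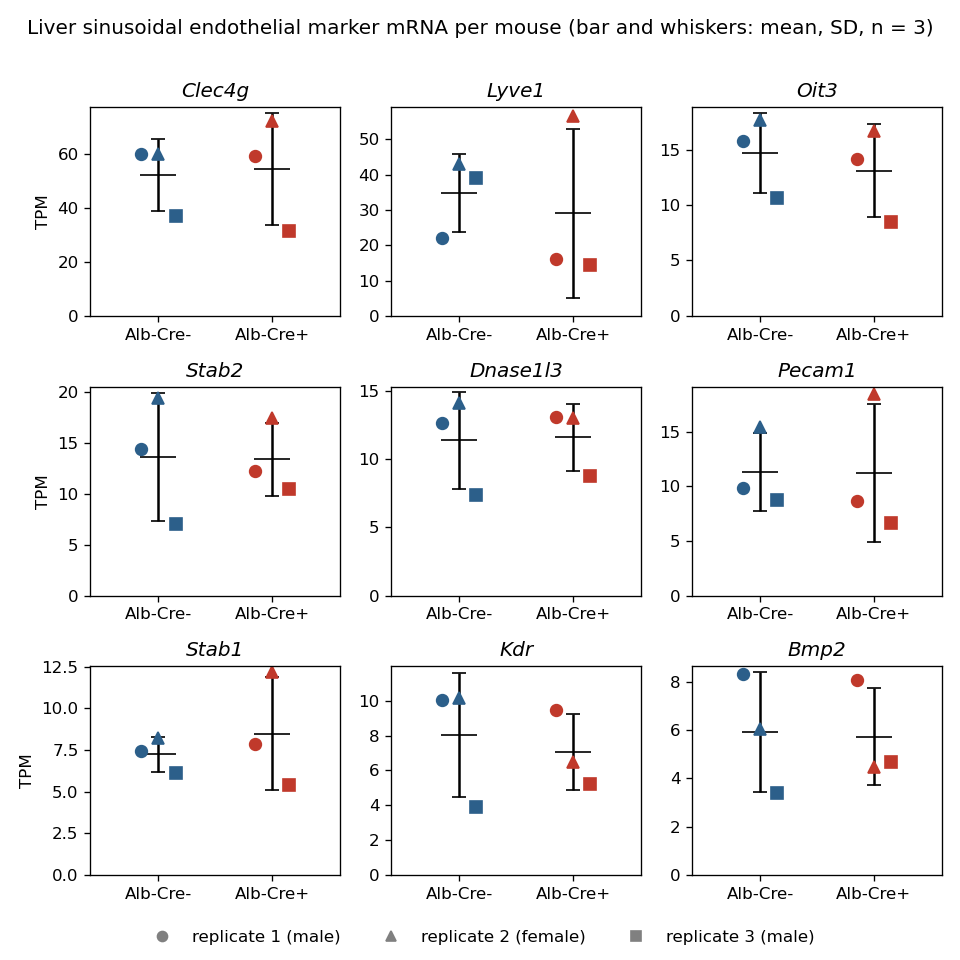
TPM of the 9 members in each mouse (y axis, TPM, from 0) by genotype (x axis), with the marker shape giving the replicate number and sex, and the bar and whiskers the mean and SD of 3 mice. The genotypes overlap in every panel, and the squares (replicate 3) or triangles (female replicate 2) lie at the extremes of most panels.

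The scavenger receptors did not differ between genotypes beyond the spread between mice. Stab1 encodes stabilin-1, which takes up modified lipoproteins and matrix fragments. Its levels in replicates 1, 2 and 3 were 7.87, 12.2 and 5.42 TPM in Alb-Cre+ mice and 7.42, 8.20 and 6.12 TPM in Alb-Cre- mice. The Alb-Cre+ mice therefore held both the highest and the lowest value, and the means were 8.48 ± 3.41 TPM and 7.25 ± 1.05 TPM (SD, n = 3 each). The log2 difference, Alb-Cre+ minus Alb-Cre-, was 0.16 (SE 0.30, 95% interval -0.55 to 0.87), with an adjusted p of 1.0 by limma and p = 0.8 by an exact two-sided permutation test. With 3 mice against 3, that test cannot go below 0.1.

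Stab2 encodes stabilin-2, a clearance receptor for hyaluronan. It was at 12.3, 17.4 and 10.5 TPM in the Alb-Cre+ mice and at 14.4, 19.5 and 7.03 TPM in the Alb-Cre- mice. Here the Alb-Cre- mice held both extremes, and the log2 difference was 0.06 (SE 0.38, 95% interval -0.85 to 0.96). Lyve1, another hyaluronan receptor, was the most variable member: it was at 16.0, 56.6 and 14.5 TPM in Alb-Cre+ mice and at 22.2, 43.0 and 39.1 TPM in Alb-Cre- mice. The female Alb-Cre+ mouse stood above all others and the male Alb-Cre+ mice below all others. Its log2 difference of -0.50 (SE 0.53, 95% interval -1.76 to 0.76) was the widest of the 9 in size and in error, with an adjusted p of 1.0 by limma and p = 0.5 by the exact permutation test.

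Clec4g encodes a C-type lectin of the sinusoidal wall that binds sugar chains. It was at 59.4, 72.3 and 31.6 TPM in Alb-Cre+ mice and at 60.0, 60.2 and 37.0 TPM in Alb-Cre- mice. The replicate 3 mice were the lowest of both genotypes, and the means were 54.5 ± 20.8 TPM and 52.4 ± 13.3 TPM (SD, n = 3 each). The log2 difference of 0.01 (SE 0.34, 95% interval -0.79 to 0.80) was among the smallest of the members. Dnase1l3 encodes a secreted nuclease that degrades DNA in chromatin. It was at 13.1, 12.98 and 8.77 TPM in Alb-Cre+ mice and at 12.6, 14.1 and 7.34 TPM in Alb-Cre- mice, with a log2 difference of 0.06 (SE 0.29, 95% interval -0.62 to 0.74). In both genes replicate 3 was the lowest mouse of either genotype.

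Oit3, which encodes a protein with a zona pellucida domain found in liver, was the 1 member lower in Alb-Cre+ liver in all 3 pairs of same-numbered mice. It was at 14.1, 16.7 and 8.48 TPM in Alb-Cre+ mice and at 15.8, 17.7 and 10.6 TPM in Alb-Cre- mice. The genotypes overlapped, and replicate 3 of each lay below replicates 1 and 2. The log2 difference was -0.19 (SE 0.30, 95% interval -0.90 to 0.52), and within pairs it was -0.16, -0.08 and -0.32. The 3 pairs went 1 way in 23.9% of all genes tested and were all lower in 12.4%, so 1 of 9 members is close to the background. Blocked by replicate number, the interval of Oit3 was -0.48 to 0.10.

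The genotypes also overlapped for the endothelial receptor and junction genes. Kdr, the main VEGF receptor of endothelium, was at 9.46, 6.49 and 5.24 TPM in Alb-Cre+ mice and at 10.0, 10.1 and 3.92 TPM in Alb-Cre- mice. The Alb-Cre- mice held both extremes, and the log2 difference was -0.10 (SE 0.41, 95% interval -1.07 to 0.86). Pecam1, an adhesion molecule at the contacts between endothelial cells, was at 8.65, 18.5 and 6.65 TPM in Alb-Cre+ mice and at 9.88, 15.4 and 8.71 TPM in Alb-Cre- mice. Its female mice stood above all males in both genotypes, and its log2 difference was -0.11 (SE 0.40, 95% interval -1.05 to 0.84).

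Bmp2, the ligand that acts on hepatocyte hepcidin, was the member with the least genotype difference relative to its error. It was at 8.05, 4.48 and 4.67 TPM in Alb-Cre+ mice and at 8.31, 6.05 and 3.40 TPM in Alb-Cre- mice. Replicate 1 was the highest of either genotype. Over all 6 mice, the highest value of each of the other 8 members was in a female. Among the Alb-Cre+ mice alone, replicate 1 was also the highest for Kdr and Dnase1l3. The means were 5.73 ± 2.01 TPM and 5.92 ± 2.46 TPM (SD, n = 3 each), and the log2 difference was -0.01 (SE 0.38, 95% interval -0.90 to 0.88).

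Of the 9 members, 0 passed the adjusted threshold of 0.01 by limma, and 0 were under 0.05 before adjustment, against 1.76% of all genes. The genotypes did not overlap in 0 members, against 4.9% of all genes. The exact permutation p ranged from 0.5 to 1.0. The summed TPM of the members was 149, 218 and 95.8 in Alb-Cre+ replicates 1, 2 and 3 and 161, 194 and 123 in Alb-Cre- mice, so that the order of the mice by replicate number was the same in the 2 genotypes. Over the 9 members the lower ends of the intervals ran from -1.76 to -0.55 and the upper ends from 0.52 to 0.96 on the log2 scale. With 3 mice per genotype, differences within these intervals remain possible. The intervals are not detection limits, since the lower level of Surf4 was not called either.

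Same-numbered mice resembled each other, and comparing within these pairs narrowed the intervals without adding a call. Under that block (replicate number), the SE of the log2 difference was smaller for all 9 members, at 0.116 to 0.334 against 0.289 to 0.534. The interval for Clec4g became -0.31 to 0.32 and that for Lyve1 -1.34 to 0.34. The unadjusted p of the members was 0.161 to 0.971 under the block, and 0 of 9 were under 0.05, against 4.69% of all genes.

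**Figure D2:**
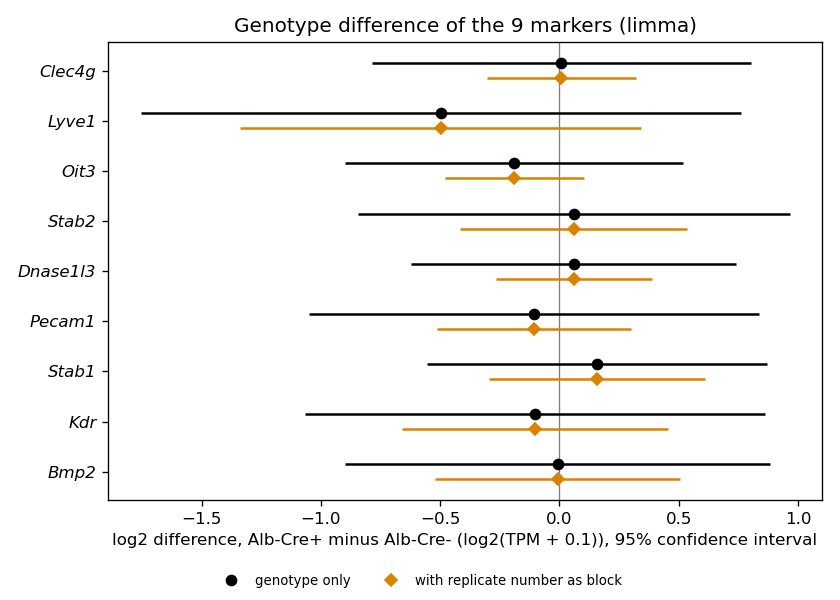
The log2 difference of each member (x axis, Alb-Cre+ minus Alb-Cre-, on log2(TPM + 0.1)) with its 95% confidence interval, from the fit with genotype alone (circles) and with the replicate number as a block (diamonds). All 18 intervals span 0, and those of the block are narrower for every member.

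The female mice were higher than the males for most members. Both female mice stood above all 4 males for 6 of 9 members, Stab1, Stab2, Clec4g, Lyve1, Pecam1 and Oit3, against 36.6% of all genes. The median difference, female minus male, was 0.54 on the log2 scale for the members and 0.26 for all genes tested. Sex was the same as replicate number 2 here, so these cannot be told apart. With genotype in the model, Pecam1 differed most clearly, by 1.00 (SE 0.19), with an adjusted p of 0.0339 by limma. That p ran from 0.0278 to 0.304 over the alternatives, and was above 0.05 with no minimum, without the trend and in 5 of the 6 fits that left out a mouse. Lyve1 differed by 1.21 (SE 0.34), with an adjusted p of 0.0821. At the threshold of 0.01, 0 of 9 members were called, against 0.514% of all genes. An unadjusted p under 0.05 was found for 4 of 9 (Stab1, Stab2, Lyve1 and Pecam1), all higher in females, against 28.7% of all genes in either direction and 25.6% higher in females.

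The members' median sex difference was smaller after median of ratios scaling. TPM has a fixed total per mouse, so the scaling factors can also reflect RNA composition, and their source was not tested. The factors by which the mice differed over all genes (median of ratios) were 1.21 and 1.08 in the females and 0.847 to 0.994 in the males. After dividing by these factors, the median difference of all genes was -0.01 and that of the members 0.26. Pecam1 was then higher in females by 0.72 with an adjusted p of 0.0340, Lyve1 by 0.93 and Stab2 by 0.50, while both females stood above all males for 1 of 9 members, Pecam1, against 18.7% of all genes. Bmp2 and Kdr were not higher in females on that scale, with differences of -0.41 and -0.00 on the log2 scale. The genotype difference of the members was also compared between sexes, and the interaction term had an unadjusted p under 0.05 in 0 of 9 members, with a smallest adjusted p of 0.775.

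The replicate 3 males were lower than the replicate 1 males. Replicate 1 was above replicate 3 in both genotypes for 8 of 9 members, all but Lyve1, against 47.6% of all genes. After median of ratios scaling this was also 8 of 9, against 29.4%. Because 6 mice of 3 numbers give this order, it is a description without a test. Lyve1 was the exception in the Alb-Cre- mice, where replicate 1 at 22.2 TPM was below replicate 3 at 39.1 TPM.

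Markers of other non-parenchymal cells moved across the same mice. The 13 Kupffer cell markers, genes of the resident macrophages of the sinusoid such as Cd5l and C1qb, added up to 440, 1050 and 314 TPM in Alb-Cre+ replicates 1, 2 and 3 and to 443, 975 and 388 TPM in Alb-Cre- mice. All 13 were higher in both females than in all males, against 36.6% of all genes, and none was at 0. After median of ratios scaling this still held for all 13, against 18.7% of all genes. The endothelial members went from 6 of 9 to 1 of 9. The 12 stellate cell markers, led by Dcn and Ecm1, added up to 285, 379 and 196 TPM and to 307, 402 and 153 TPM in the same order. The 5 erythroid genes ran the other way in the females, at 308, 131 and 172 TPM and at 262, 103 and 408 TPM. The 10 hepatocyte markers had a median sex difference of 0.01, with single genes from -1.05 to 0.46. After median of ratios scaling their median was -0.27. Over all genes the medians were 0.26 before and -0.01 after that scaling. The part of these differences in the levels of the 9 endothelial markers was not tested.

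**Figure D3:**
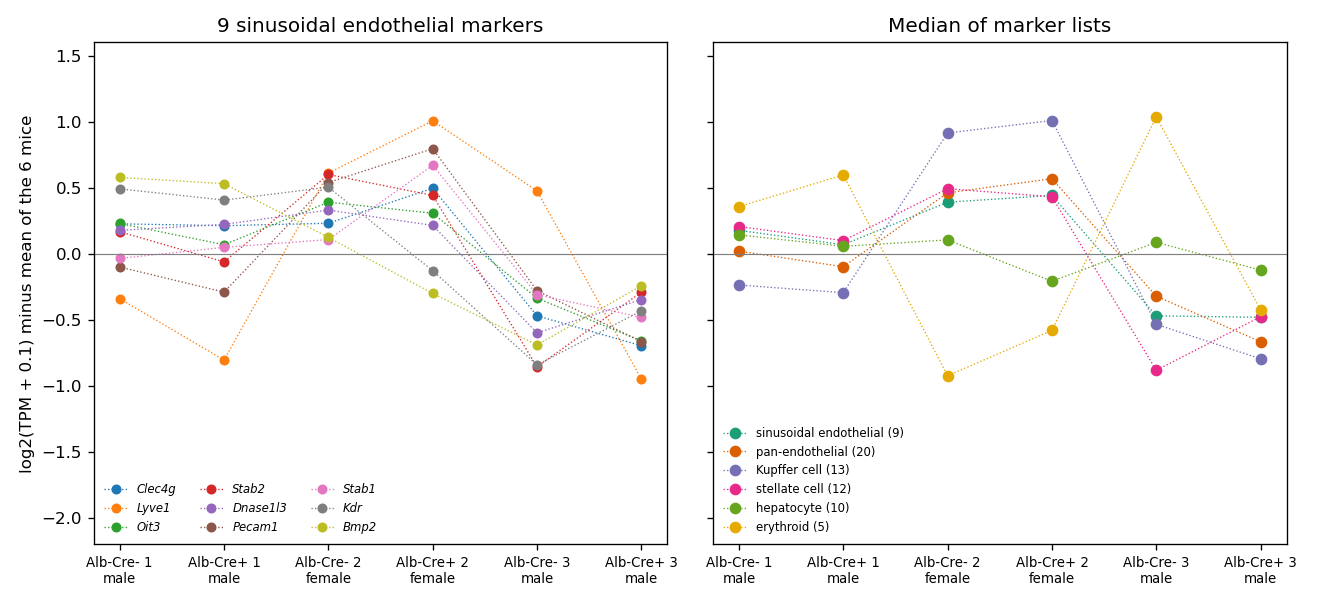
Left, log2(TPM + 0.1) of each member minus its mean over the 6 mice (y axis, log2 units) by mouse (x axis, ordered by replicate number). Right, the median of the same quantity for 6 marker lists with their number of genes: the sinusoidal, pan-endothelial, Kupffer and stellate lists are high in the females (replicate 2) and low in replicate 3, the erythroid list is low in the females, and the median of the hepatocyte list runs from -0.21 to 0.14.

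The other genes of the endothelium gave the same picture between genotypes. Of 19 further sinusoidal endothelial genes tested, 0 had an unadjusted p under 0.05, 6 were higher and 13 lower, with a median of -0.10. The most abundant, Ctsl and Aass, are also made by hepatocytes. Of 20 pan-endothelial genes, 0 had a p under 0.05, 7 were higher and 13 lower, with a median of -0.10. Eng, a co-receptor for BMP9, and Egfl7, a secreted endothelial factor, were the most abundant of these and had log2 differences of 0.02 and 0.02. Under the replicate block, 1 gene of each list was under an unadjusted p of 0.05, against 4.69% of all genes, which is close to the background. These genes, Ehd3 and Tek, are named here after their values were seen. The summed pan-endothelial level was 126, 202 and 93.7 TPM in Alb-Cre+ mice and 131, 182 and 107 TPM in Alb-Cre- mice.

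Genes that mark the 2 ends of the sinusoid were counted apart from each other. The portal list shares Adam23 with the further sinusoidal endothelial genes and Msr1 with the scavenger receptor family, so those counts are not separate. Of 6 central endothelial genes, among them the WNT pathway genes Wnt2 and Rspo3, 4 were higher and 2 lower, with a median of 0.03. Of 6 portal genes, 0 were higher and 6 lower, with a median of -0.30 and 0 with an unadjusted p under 0.05, or 2 of 6 with the replicate block, against 4.69% of all genes. The genotypes did not overlap for 2 of the 6 portal genes, against 4.9% of all genes, and these 2 are named here after their values were seen. Efnb2, an arterial ephrin ligand, was at 0.719, 0.510 and 0.435 TPM in Alb-Cre+ mice and at 1.02, 0.784 and 1.01 TPM in Alb-Cre- mice. Ntn4, a netrin of basement membranes, was at 2.93, 3.24 and 1.79 TPM against 3.68, 4.97 and 3.73 TPM. Their log2 differences were -0.68 (SE 0.31) and -0.65 (SE 0.29), with adjusted p of 1.0 by limma. Both were lower in the Alb-Cre+ mouse of every pair, as were 12.4% of all genes. Under the replicate block their unadjusted p was 0.0356 and 0.0196 and their adjusted p 0.999 and 0.914 by limma.

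Of 12 genes of vascular or capillarized endothelium, which rise when sinusoids take on a continuous lining, 0 had an unadjusted p under 0.05, 7 were higher and 5 lower, with a median of 0.21. Under the replicate block 1 of the 12 was, against 4.69% of all genes. This was Col4a2, named here after its values were seen. Plvap and Col4a1 were the most abundant, and Col4a1 was at 51.9 TPM in the female Alb-Cre+ mouse and at 4.32 to 23.3 TPM in the others. Of 5 lymphatic genes, 2 were higher and 3 lower, with a median of -0.33, and Ccl21a, a chemokine of lymphatic endothelium, had an unadjusted p of 0.0449 and an adjusted p of 1.0 by limma, with a log2 difference of -0.88. Its levels were 1.19, 0.915 and 1.49 TPM in Alb-Cre+ mice and 1.51, 2.18 and 3.48 TPM in Alb-Cre- mice. Prox1 and Reln, the most abundant of that list, are also made by hepatocytes and by stellate cells.

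No signalling partner of Kdr or Bmp2 was called between genotypes. Of 9 VEGF pathway genes tested, Kdr included, 7 were higher and 2 lower, with 0 under an unadjusted p of 0.05. Vegfa, the hepatocyte ligand of Kdr, was at 36.7, 43.5 and 25.8 TPM in Alb-Cre+ mice and at 29.8, 38.8 and 18.8 TPM in Alb-Cre- mice. It was higher in the Alb-Cre+ mouse of every pair, as were 11.5% of all genes, with a log2 difference of 0.31. Its unadjusted p was 0.345 without and 0.0328 with the replicate block, with adjusted p of 1.0 and 0.999 in these limma fits. Under the block 1 of the 9 genes had an unadjusted p under 0.05, against 4.69% of all genes. Flt1, the decoy receptor for VEGF, was at 1.49 to 5.48 TPM in the 6 mice and had a log2 difference of 0.02.

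Of 19 genes of the BMP and hepcidin pathway, Bmp2 included, 10 were higher and 9 lower, with a median of 0.02 and 0 under an unadjusted p of 0.05. Bmp6, the partner ligand of Bmp2, was at 2.24, 2.30 and 1.92 TPM in Alb-Cre+ mice and at 2.24, 3.22 and 1.80 TPM in Alb-Cre- mice. Hamp, which encodes hepcidin, was at 3308 to 4574 TPM in Alb-Cre+ mice and 3309 to 6024 TPM in Alb-Cre- mice, with a log2 difference of -0.27. The ranges overlapped for both. They did not overlap for 1 of the 19 genes of the list, against 4.9% of all genes. This was the iron-sensing receptor Tfr2, named here after its values were seen. It was at 141, 165 and 143 TPM against 140, 139 and 138 TPM, with a log2 difference of 0.10 (SE 0.11). Id1, a direct target of BMP signalling named here after its values were seen, was at 13.6, 51.1 and 18.8 TPM against 20.4, 99.0 and 22.8 TPM. It was lower in the Alb-Cre+ mouse of every pair, as were 12.4% of all genes, with a log2 difference of -0.60. Of the 19 genes it was the 1 with an unadjusted p under 0.05 under the replicate block, against 4.69% of all genes. That p was 0.421 without and 0.00911 with the block. Its adjusted p was 1.0 and 0.739 in these limma fits.

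Of 12 genes of the scavenger receptor family, 3 of them members, 4 were higher and 8 lower. An unadjusted p under 0.05 was found for 1, against 1.76% of all genes. Under the replicate block it was found for 2, against 4.69%. The second was Marco, named here after its values were seen. The first was Scarb1, the receptor for high-density lipoprotein that hepatocytes and steroid-making cells use. It was the 1 gene of this list with non-overlapping genotypes, against 4.9% of all genes. Its levels were 85.0, 76.5 and 76.3 TPM against 106, 94.5 and 120 TPM, with a log2 difference of -0.42 (SE 0.13) and an adjusted p of 1.0 by limma. Of 8 C-type lectin neighbours and DNase genes tested, 2 of them members, 4 were higher and 4 lower. Over all 161 further listed genes tested, 0 were called, and the median log2 difference was -0.06. An unadjusted p under 0.05 was found for 3 of them and non-overlapping genotypes for 8. Over all genes these shares were 1.76% and 4.9%, so both counts are close to the background.

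At the level of transcripts, the stabilin genes differed from the other members in how much of their TPM was assigned to messages that encode protein. In the GENCODE M21 annotation, protein-coding transcripts held nearly all TPM of 6 members in every mouse, the least being Pecam1 with 98.0 to 98.9%, beside Clec4g, Kdr, Bmp2, Oit3 and Dnase1l3. They held 74.1 to 91.8% for Lyve1, whose other transcript retains an intron, 29.6 to 57.8% for Stab1 and 25.8 to 46.7% for Stab2. With coding transcripts alone, Stab1 was at 4.15 ± 2.66 TPM in Alb-Cre+ and 3.62 ± 0.889 TPM in Alb-Cre- mice (SD, n = 3 each), and Stab2 at 4.89 ± 2.87 TPM and 4.03 ± 1.42 TPM. The genotypes overlapped on that scale too, with log2 differences of -0.00 for Stab1 and 0.19 for Stab2.

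**Figure D4:**
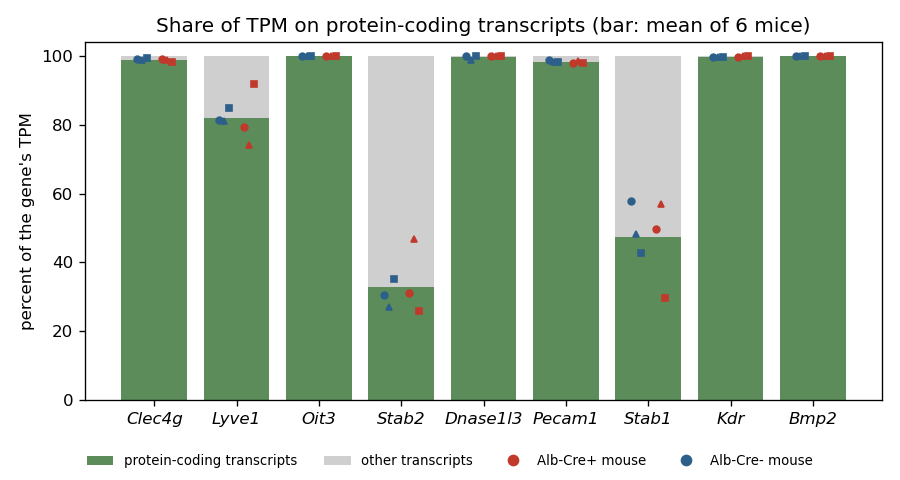
Percent of each member's TPM (y axis) on protein-coding transcripts (green) and on all others (grey), as the mean of 6 mice, with a point for each mouse coloured by genotype. Stab2 and Stab1 have the smallest coding shares and the widest spread between mice, and 6 of the members lie close to 100%.

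Stab1 lies on chr14:31139013-31168641 of GRCm38 and shares 112 exonic bases with Nt5dc2 on the opposite strand, which was at 5.22 TPM on average. Clec4g (chr8:3707064-3720651) and Stab2 (chr10:86841198-87008025) share 146 and 141 exonic bases with the antisense genes Gm16553 and Gm16268, which are not among the genes of the TPM table. The strand setting of the counting is not given in the sources used here, so reads from these stretches cannot be assigned with certainty. Stab2 and Oit3 (chr10:59422958-59441778) lie on a single chromosome, as do Stab1 and Dnase1l3 (chr14:7964533-7994573), each far apart. The remaining members lie on chr7:110850607-110863239 (Lyve1), chr5:75932827-75978458 (Kdr), chr11:106654217-106750628 (Pecam1) and chr2:133552159-133562885 (Bmp2).

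The members followed their mean profile over the mice to differing degrees, Oit3 most closely and Lyve1 least. The profile was taken on TPM without median of ratios scaling, so it includes the shift shared by all genes. The root mean square distance from the members' mean profile, on centred log2(TPM + 0.1) over 6 mice, was 0.0814 for Oit3 and rose to 0.343 for Kdr, 0.431 for Bmp2 and 0.631 for Lyve1. Each member is itself part of that mean. Among 10626 other genes that averaged 1 TPM or more, Chic1 at 0.0383 and Lhfp at 0.0676 were among the nearest to the mean profile. Chic1 was at 0.675 to 1.40 TPM and Lhfp at 4.16 to 8.51 TPM in the 6 mice, with the lowest value of both in a replicate 3 mouse. The distances rest on 6 mice and are a description.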

How the data were processed

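Liver RNA of 6 mice was sequenced by the authors, who state alignment to GRCm38 with STAR and quantification with RSEM; the deposited table of TPM per transcript is labelled as salmon output. Read numbers cannot be recovered from TPM, so depth is unknown and values carry no counting interval. A deposited table of the authors' DESeq2 comparison (log2 fold changes, p-values) was not used.

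TPM of 116748 transcripts were summed by gene symbol; 163 unnamed transcripts, 0.0515 to 0.0887% of TPM, were left out. Genes averaging 0.1 TPM or more were tested on log2(TPM + 0.1), which understates changes of low genes, with limma 3.58.1 in R 4.3.3 (trend, empirical Bayes), with genotype alone, genotype and sex, or their interaction, two-sided, Benjamini-Hochberg adjusted over all 14189 genes, threshold 0.01. Exact permutation tests used scipy 1.17.1. The procedure was tested on simulated data.

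The deviations of same-numbered mice from their genotype means correlated at 0.367, 0.588 and 0.370 over genes. Those of differently numbered mice correlated at -0.444 to 0.171. Deviations within a genotype are bound to each other, so these values are not independent. The numbers were treated as pairs in an alternative fit (replicate block), a choice that rests on these same data. The labels do not say what a number marks. Replicates are separate mice.

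Genes named are the members, Surf4, Alb, Vegfa, Flt1, Bmp6, Hamp, up to 3 genes per list with the smallest unadjusted p under 0.05, up to 2 of the most abundant per list, and the 3 nearest profiles, of which not all are reported here; Efnb2, Ntn4, Id1, Tfr2 and those given as named after their values were seen are exceptions. The members and lists were chosen with earlier results of these data known. Alternatives were a pseudocount and a minimum of 1 TPM, no minimum, median of ratios scaling, no trend, sex as covariate, an adjusted p of 0.05 and each mouse left out; coding transcripts alone and males alone were added after the data were seen.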

Additional observations from a re-analysis of the deposited data

How the results depend on the processing

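With 3 mice per genotype and unknown depth, the limits of the genotype comparison are the wide intervals given above; under every alternative run, 0 of 9 members were called between genotypes. Under the replicate block, 0 genes were called and 666 had an unadjusted p under 0.05, against 250 without it, and the block changed no call. Leaving out each mouse gave 0 to 1 called genes; the 1 gene, Gm10240 (named after its value was known), was called without Alb-Cre+ replicate 1. The members' median log2 difference then ran from -0.35 (without Alb-Cre- replicate 3) to 0.20 (without Alb-Cre+ replicate 3). For single members the direction turned with the mouse left out: Stab1 -0.14 to 0.44, Stab2 -0.35 to 0.37, Clec4g -0.24 to 0.36, Kdr -0.55 to 0.12, Pecam1 -0.53 to 0.20, Bmp2 -0.35 to 0.28, Oit3 -0.40 to 0.093 and Dnase1l3 -0.22 to 0.25; Lyve1 stayed lower, at -1.12 to -0.15. Directions also turned for Stab1 with coding transcripts alone (-0.0034), and with males alone for Stab1 (-0.044), Clec4g (-0.12), Kdr (0.16) and Bmp2 (0.20); the cause was not tested. For sex, 1 member (Pecam1) was called at an adjusted p of 0.05, a call lost with no minimum (0.0728), without the trend (0.0559) and without Alb-Cre+ replicate 1, 2 or 3 or Alb-Cre- replicate 2 or 3 (0.0564 to 0.304); the difference of Kdr was -0.00028 after median of ratios scaling and -0.12 to 0.68 with a mouse left out, and that of Bmp2 -0.45 to 0.18. Over all genes, 73 were called for sex, against 28 with no minimum, 31 without the trend, 138 with coding transcripts alone, 1019 at an adjusted p of 0.05, and 3 (without either female) to 51 with a mouse left out.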

Other observations

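The cell lists not described above held few differences between genotypes. Of 13 Kupffer cell markers, 4 were higher and 9 lower in Alb-Cre+ liver, with a median log2 difference of -0.08, and of 12 stellate cell markers 8 were higher and 4 lower, with a median of 0.08. Of 7 cholangiocyte markers tested 3 were higher and 4 lower, of 12 leukocyte markers 7 were higher and 5 lower, of 5 erythroid genes 1 was higher and 4 lower, and of 3 platelet genes tested 2 were higher and 1 lower; in each of these lists 0 genes had an unadjusted p under 0.05. Under the replicate block, 1 of 13 Kupffer cell markers (Marco) and 2 of 12 leukocyte markers (S100a8 and S100a9) did, against 4.69% of all genes. S100a8 and S100a9, the calcium-binding proteins of neutrophils, were the most abundant of the leukocyte list. S100a8 was at 13.7, 98.4 and 16.7 TPM in Alb-Cre+ mice and at 11.6, 47.4 and 6.63 TPM in Alb-Cre- mice. It was higher in the Alb-Cre+ mouse of every pair, as were 11.5% of all genes. Its unadjusted p was 0.382 without and 0.0101 with the replicate block (adjusted p of 1.0 and 0.771 by limma).

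Of 10 hepatocyte markers, 3 were higher and 7 lower. An unadjusted p under 0.05 was found for 1, against 1.76% of all genes, or for 2 under the replicate block, with Ttr, against 4.69%. Apoa1, the main protein of high-density lipoprotein, had the smallest unadjusted p of the listed genes. It was at 8802 to 10222 TPM in Alb-Cre+ mice and at 15764 to 20844 TPM in Alb-Cre- mice. The ranges did not overlap, as for 2 of the 10 hepatocyte markers and 4.9% of all genes. The log2 difference was -0.91 (SE 0.24), with an adjusted p of 1.0 by limma.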
